A study of Komagataella phaffii with 18 samples.

Results

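The transcriptome of wild-type Komagataella phaffii CBS2612 after 24 h in acetate medium was compared with that of the same strain growing exponentially in YPD, a rich glucose medium. K. phaffii is a methylotrophic budding yeast used for protein production. The comparison used the 3 acetate wild-type and the 3 YPD wild-type libraries, 6 of the 18 in the series, chosen by their medium and genotype labels. The other 12 libraries came from a-type and α-type heterothallic strains, labelled dic1-2Δ(a) and dic1-2Δ(α), in the same media. All strains share the CBS2612 background, and the wild type carries no named deletion. Per the labels, the YPD cultures were themselves moved to acetate medium, so the change of medium cannot be told apart from time or growth phase. Poly(A)-enriched RNA was sequenced, and the labels do not say whether each of the 3 libraries in a group had its own culture. The p-values therefore measure the spread between these libraries, which may be technical.

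Wild-type K. phaffii is homothallic: a cell can switch between the a and α mating types, so that cells of either type can arise within a culture and mate. In this yeast mating and sporulation are induced on poor media, and acetate medium is used for that purpose. A budding yeast living on acetate builds its sugars through the glyoxylate cycle and gluconeogenesis, whereas on glucose much of its transcription serves ribosomes and glycolysis. RNA was taken from whole cultures, so a change in the share of cells of a given type and a change in RNA per cell cannot be told apart. The tables list 5341 features by ID and coding length without gene names, and 0 of the IDs occur in the RefSeq gene table of strain GS115. The genes of these pathways could therefore not be counted, and features are given by ID with no function assigned.

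The deposited totals were low and unequal. They ran from 637339 to 733016 estimated counts in the acetate libraries and from 234044 to 297754 in the YPD libraries. Estimated counts can be fractional, since kallisto shares out a read that could come from more than 1 transcript. Acetate libraries resembled one another more closely than YPD libraries: the biological coefficient of variation was 12.8% in acetate and 33.4% in YPD. Across the 3902 features with enough counts to test, Pearson's correlation of log2 CPM (counts scaled by library size) was 0.967 to 0.975 within acetate and 0.870 to 0.907 within YPD. Between the media it was 0.513 to 0.567. Such correlations run over features, and features are not independent replicates. The axis of greatest variance separated the media and held 81.6% of the variance.

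More than 1 in 2 tested features differed between the media. With edgeR's quasi-likelihood test and a Benjamini-Hochberg adjusted p under 0.05, 2154 of 3902 features passed, or 55.2%. Of these, 1060 rose in acetate (27.2% of those tested) and 1094 fell (28.0%). Library values did not overlap between the media for 1052 of the features that rose and 1045 of those that fell. Without any test, 31.3% of tested features were higher and 31.1% lower in acetate in every pair of libraries. The median log2 fold change over all tested features was -0.03, and the middle 50% lay between -1.01 and 0.97.

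Changes of 8-fold or more were more often rises, and smaller ones more often falls. Below 8-fold, 828 features rose and 969 fell, and between 2-fold and 4-fold 448 rose and 563 fell. Without YPD replicate 2, 963 rose and 950 fell below 8-fold, the only 1 of the 14 alternatives in which falls did not lead there. Counted cumulatively among features past the threshold, 910 rose and 932 fell by a fitted fold of at least 2. At 8-fold or more, 232 rose (5.95% of those tested) and 125 fell (3.20%). At 32-fold or more, 55 rose and 15 fell, and at 64-fold or more 23 rose and 4 fell. The median log2 fold change was 1.83 among features that rose and -1.59 among those that fell. When the fold change itself was tested against 2-fold (edgeR glmTreat, adjusted p under 0.05), 1123 features passed (28.8%), of which 602 rose (15.4%) and 521 fell (13.4%). With upper-quartile scaling this order turned, at 566 rises and 596 falls past 2-fold. Among all calls, which direction led varied with the setting. Falls led with upper-quartile scaling (963 rose, 1190 fell) and limma voom (1034 and 1125), for example. Rises led with DESeq2 (1043 and 953), RLE scaling (1114 and 1037) and the replicate block (995 and 962), for example. Under each of the 14 alternatives run, more features rose than fell at 8-fold or more. The difference was smallest with upper-quartile scaling, where 213 rose and 149 fell.

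**Figure D1:**
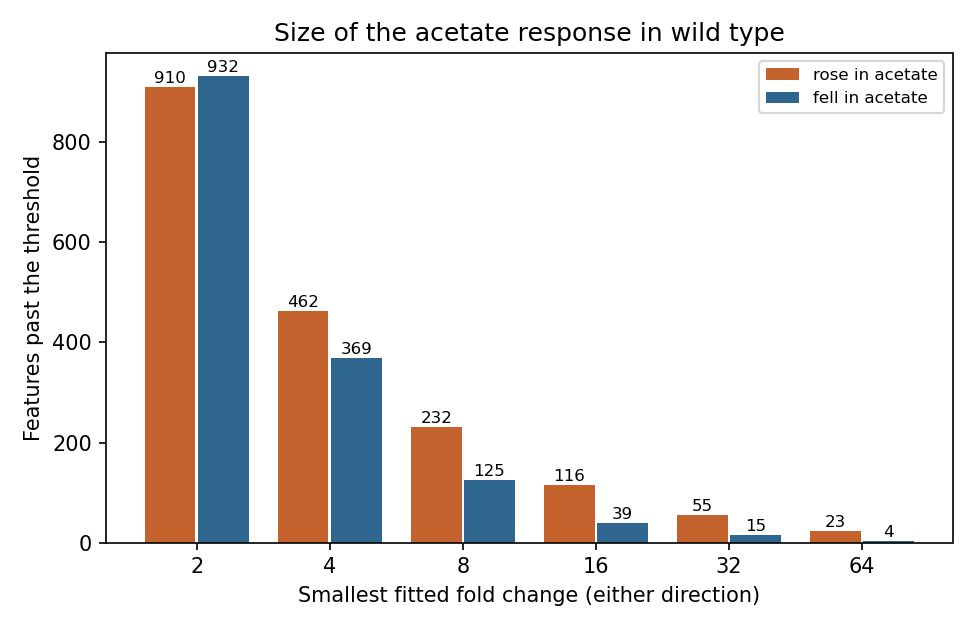
Number of wild-type features past the threshold (vertical axis) that rose or fell in acetate by at least the fitted fold change on the horizontal axis. The bars are close at 2-fold, with 910 and 932 features, and part at 8-fold, with 232 and 125.

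The features that did not pass were not shown to be equal in both media. Of the 1748, 558 had a 95% interval of the fold change that lay within 2-fold in either direction. The median width of the interval in this set was 1.63 on the log2 scale.

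**Figure D2:**
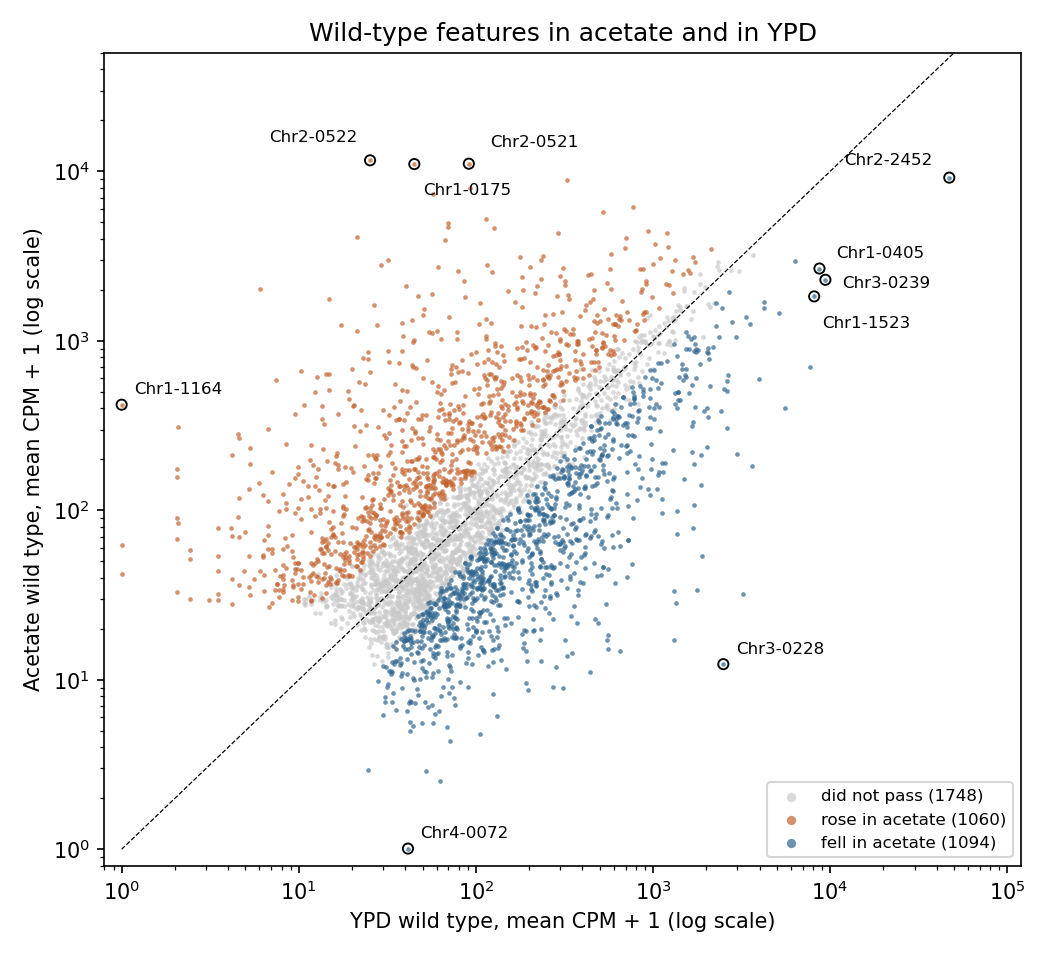
Mean CPM plus 1 of each tested feature in acetate wild type (vertical, log scale) against YPD wild type (horizontal, log scale), coloured by call; the dashed line marks equal levels and circles mark the features described by ID. The features with the highest acetate levels lie far from the line, at 24.3, 90.3 and 43.9 CPM in YPD, whereas those with the highest YPD levels lie nearer to it.

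The most abundant features were replaced to a large extent. Of the 100 features with the highest mean CPM in acetate, 24 were also among the 100 highest in YPD, and of the 10 highest 1 was shared. The 100 highest in acetate took 29.8% of the counts in acetate and 15.8% in YPD. The 100 highest in YPD took 11.8% in acetate and 30.1% in YPD. Since these sets were chosen by their levels, their direction is a description: in the acetate set 82 rose, 6 fell and 12 did not pass, and in the YPD set 6 rose, 73 fell and 21 did not pass. The 10 most abundant features of acetate had a median rank of 1678.5 in YPD. The 10 most abundant of YPD had a median rank of 96.5 in acetate, and the lowest placed of them still ranked 641.

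PP7435_Chr2-0522, with a coding length of 1197 bases, had the highest mean in acetate. It had 13972, 9170 and 11744 CPM in the 3 acetate libraries and 22.2, 16.1 and 34.6 CPM in the 3 YPD libraries. Every acetate value lay far above every YPD value. The log2 fold change was 8.93 (SE 0.33; edgeR adjusted p = 1.4e-09), and this feature alone took 1.09% of all acetate counts against 0.00249% in YPD.

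PP7435_Chr2-0521, whose ID number is the one before it, was second at 10381, 11566 and 11383 CPM in acetate, against 133, 90.1 and 47.5 CPM in YPD. The log2 fold change was 6.91 (SE 0.32; edgeR adjusted p = 9.85e-09). It is short, with a coding length of 474 bases, so per length it led the acetate libraries: its mean was 37900 TPM (a level scaled by length and library) in acetate and 287 TPM in YPD. PP7435_Chr1-0175, with a coding length of 2460 bases, came next by CPM, at 10181, 11292 and 11679 in acetate and 34.9, 45.1 and 51.8 in YPD. Its log2 fold change was 7.98 (SE 0.26; edgeR adjusted p = 1.4e-09). All 3 features were among the middle or lower ranks in YPD, at 3611, 1826 and 2796, and the groups did not overlap for any of them.

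A single feature stood above all others in YPD. PP7435_Chr2-2452, with a coding length of 486 bases, had 8253, 10195 and 9133 CPM in acetate, where it still ranked 4, and 48374, 32608 and 60439 CPM in YPD. The groups did not overlap. It fell by 2.36 on the log2 scale (SE 0.25; edgeR adjusted p = 5.79e-06), and this was the largest change in mean CPM among features past the threshold. Counts in this feature were 0.856% of the total in acetate and 4.85% in YPD. On the per-length scale it held 29816 TPM in acetate and 138245 TPM in YPD, and it was the leading feature of all 3 YPD libraries on both scales.

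The next 3 features of YPD also fell, and by similar factors. PP7435_Chr3-0239 (coding length 1632) had 2056, 2400 and 2424 CPM in acetate and 7616, 13859 and 6773 CPM in YPD, a log2 fold change of -2.04 (SE 0.26; edgeR adjusted p = 3.35e-05). It was -1.56 without YPD replicate 2, the library with the highest value. PP7435_Chr1-0405 (coding length 918) had 2361, 2635 and 3022 CPM in acetate, against 7321, 9497 and 9322 CPM in YPD. Its log2 fold change was -1.70 (SE 0.19; edgeR adjusted p = 1.14e-05). PP7435_Chr1-1523 (coding length 2523) had 1769, 1923 and 1798 CPM in acetate and 8082, 5630 and 10692 CPM in YPD, with a log2 fold change of -2.15 (SE 0.23; edgeR adjusted p = 8.08e-06). None of these features overlapped between the media, and all remained within the 100 most abundant of acetate, at ranks 62, 43 and 92.

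**Figure D3:**
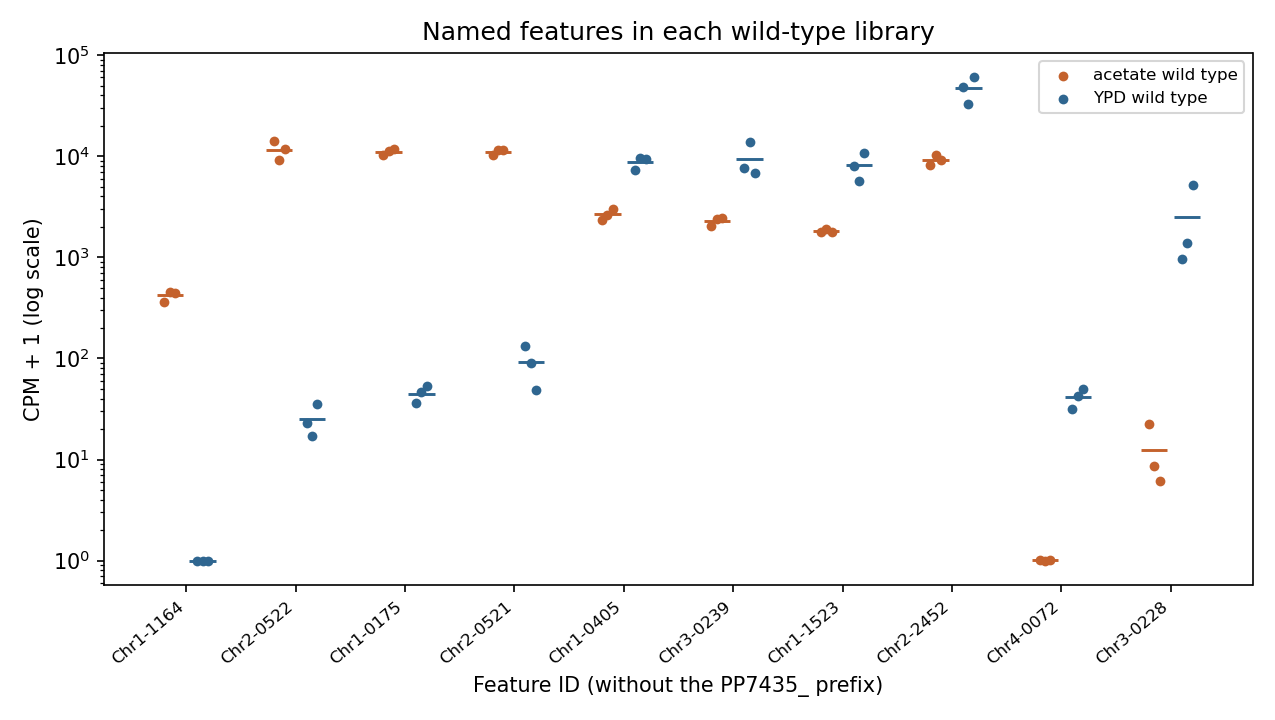
CPM plus 1 (log scale) of the features described by ID in each wild-type library, acetate left of YPD; points are libraries and bars are means of 3. Acetate points lie close together for abundant features, and YPD points spread more, as for Chr3-0228 at 961 to 5154 CPM.

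The largest fitted fold change among rises was that of PP7435_Chr1-1164 (coding length 534), a rank that rests on a fit to 0 counts in YPD. It had 357, 454 and 447 CPM in acetate and 0 counts in all 3 YPD libraries. Against a floor of 3 counts over the YPD group, it was at least 119-fold higher in acetate, a bound below the 489-fold of PP7435_Chr2-0522. Over the whole table, 68 features had counts in acetate and none in YPD, and 18 had counts in YPD and none in acetate. Of the 68, 36 exceeded that floor in acetate, and for 3 of them the bound was at least 10-fold.

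The extreme fall was that of PP7435_Chr3-0228 (coding length 513). It had 21.3, 7.67 and 5.12 CPM in acetate and 961, 1375 and 5154 CPM in YPD. The log2 fold change was -7.70 (SE 0.73; edgeR adjusted p = 2.4e-06). YPD replicate 3 carried much of the YPD mean, and without it the value was -6.59 (edgeR adjusted p = 4.39e-09). Scaling by length raises the rank of a short feature: it ranked 28 in YPD by CPM and 9 by TPM. Its mean was 6387 TPM in YPD (2534, 3996 and 12629 in the 3 libraries) and 34.0 TPM in acetate.

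PP7435_Chr4-0072 (coding length 3135) followed by fitted fold change but cannot be read alone. It had fewer than 0.1 counts over the 3 acetate libraries and 33.9 over the YPD libraries, and its YPD counts were not whole numbers. PP7435_Chr4-0003, with a coding length of 3138, had 462 counts in acetate and 32.1 in YPD, and whether reads were divided between these features was not tested beyond their sum. Summed, the pair had 239 ± 23.4 CPM in acetate and 78.6 ± 17.5 CPM in YPD (SD, n = 3). The sum rose by 1.61 on the log2 scale (SE 0.28; edgeR adjusted p = 0.000322), opposite to the fitted -7.23 of PP7435_Chr4-0072. The next largest fall, chosen after its values were seen, was PP7435_Chr4-0289 (coding length 879), with 24.2, 36.8 and 32.4 CPM in acetate and 2727, 4349 and 2570 CPM in YPD. Its log2 fold change was -6.68 (SE 0.30; edgeR adjusted p = 9.58e-09).

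By estimated counts, concentration in few features differed only at the very top. The 10 most abundant features of each library held 7.86%, 7.83% and 7.94% of the counts in acetate and 10.9%, 10.1% and 12.5% in YPD. The YPD values were all higher, and an exact permutation test over the 6 libraries gave its smallest possible two-sided p of 0.1. Without PP7435_Chr2-2452 the means were 7.54 ± 0.0933% in acetate and 7.13 ± 0.546% in YPD (SD, n = 3; exact permutation p = 0.2), and the sign of the difference turned. The number of features needed to hold 50% of the counts was 303, 274 and 277 in acetate and 301, 315 and 256 in YPD, and these ranges overlapped. Without PP7435_Chr2-2452 it was 289 ± 16.5 in acetate and 324 ± 24.6 in YPD (SD, n = 3; exact permutation p = 0.2). By TPM the same number was 221, 201 and 208 in acetate and 160, 176 and 132 in YPD, without overlap (exact permutation test, two-sided p = 0.1, the smallest possible). It was 225 ± 10.3 in acetate and 234 ± 11.9 in YPD without PP7435_Chr2-2452 (SD, n = 3; exact permutation p = 0.3). The 100 most abundant by TPM held 37.4 ± 0.663% in acetate and 43.5 ± 2.21% in YPD (exact permutation p = 0.1). Without PP7435_Chr2-2452 they held 35.6 ± 0.580% and 34.6 ± 0.944% (exact permutation p = 0.2). The 10 most abundant by TPM then held 12.4 ± 0.0625% in acetate and 11.2 ± 0.621% in YPD (exact permutation p = 0.1), against 14.3% and 22.9% with that feature.

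**Figure D4:**
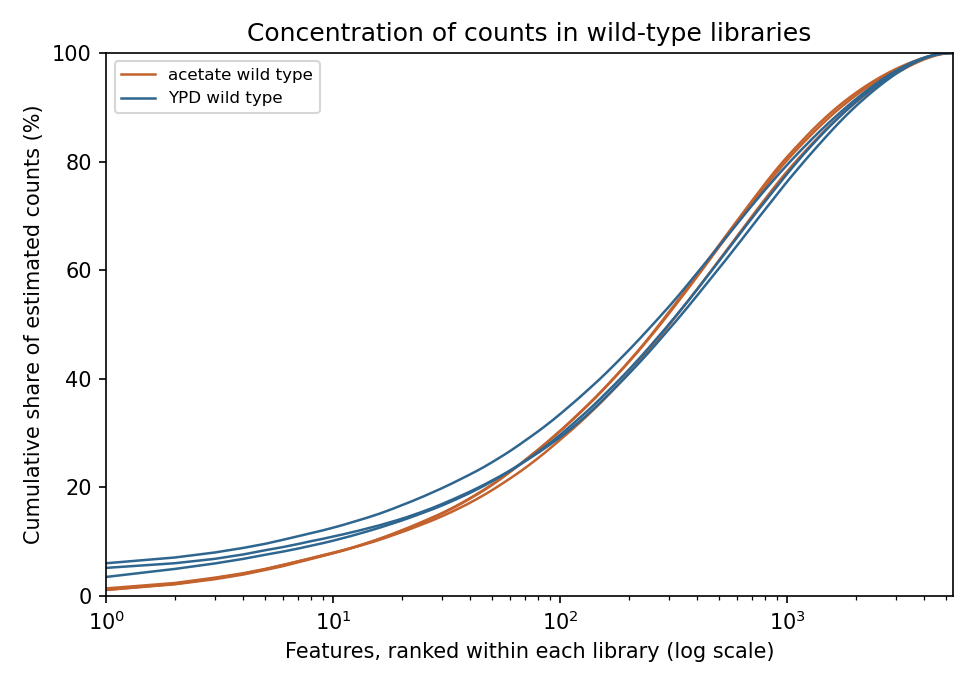
Cumulative share of estimated counts (vertical axis, %) over features ranked by abundance within each library (horizontal axis, log scale). The 3 YPD curves start higher, at 3.46% to 5.98% for the leading feature against 1.06% to 1.34% in acetate, and the curves of both media mix beyond about 100 features.

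The number of features with at least 1 estimated count was 5249, 5243 and 5230 in acetate and 5062, 5055 and 4976 in YPD. The YPD libraries were shallower. At the depth of the shallowest library, 234042 rounded counts, the expected numbers were 5010 ± 40.9 in acetate and 4988 ± 10.6 in YPD (SD, n = 3; exact permutation test, two-sided p = 0.5, where the smallest possible is 0.1).

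The changed features carried most of the RNA. Features that rose held 55.8% to 57.8% of the counts in acetate libraries and 13.9% to 15.99% in YPD libraries. Features that fell held 14.4% to 15.1% in acetate and 51.3% to 55.8% in YPD. Those that rose at least 8-fold held 22.3% to 23.0% of acetate counts and 0.963% to 1.31% of YPD counts. Those that fell at least 8-fold held 0.514% to 0.589% in acetate and 8.12% to 9.24% in YPD. These sets were chosen by the same values, so the shares describe their weight in the library and test nothing.

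Calls by level describe bands cut on the mean CPM over both media. A feature with a large change can enter an upper band through 1 medium alone, so the direction within a band is not independent of the band. In the lowest band a feature can likewise pass the count filter through 1 medium alone. The shares called there therefore depend on the filter and do not describe low features in general. Among 458 tested features with a mean of up to 30 CPM over both media, 20.1% rose and 16.4% fell. Among 617 features at 300 to 1000 CPM, 41.3% rose and 29.8% fell, and among 208 above 1000 CPM, 42.8% rose and 32.7% fell, beside 27.2% and 28.0% of all tested features. At 30 to 100 CPM, the band with the most features, 19.6% of 1618 rose and 26.1% fell.

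Short features fell more often than long ones. Of 411 tested features with a coding length over 300 and up to 600 bases, 160 fell (38.9%) and 86 rose (20.9%). Of 95 tested features of up to 300 bases, 40 fell (42.1%) and 23 rose (24.2%). The share tested varied with length, so these percentages cover only features with enough counts. It was 95 of 230 features up to 300 bases, 411 of 749 in the band ending at 600 and 586 of 653 over 2400 bases. In the band over 1200 and up to 2400 bases, 372 of 1564 fell (23.8%) and 466 rose (29.8%). The median log2 fold change was -0.46 in the band ending at 600 bases and 0.09 in that ending at 2400 bases, beside -0.03 over all tested features. Falls outnumbered rises in both bands up to 600 bases, and rises outnumbered falls in the band ending at 2400 bases, under every alternative run. The excess of rises did not extend to features over 2400 bases, of which 147 of 586 rose (25.1%) and 145 fell (24.7%). In that band falls led only with upper-quartile scaling (132 rose, 161 fell) and limma voom (146 and 150). Among features above 100 CPM the bands did not keep the same order: 39.5% of 38 features up to 300 bases fell and 28.9% rose, and 50.6% of 170 in the band ending at 600 bases fell and 25.3% rose. In the band ending at 1200 bases, 34.2% of 600 fell and 34.5% rose, whereas over all tested features of that band 30.3% fell and 27.1% rose. No test was made of this difference between bands.

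**Figure D5:**
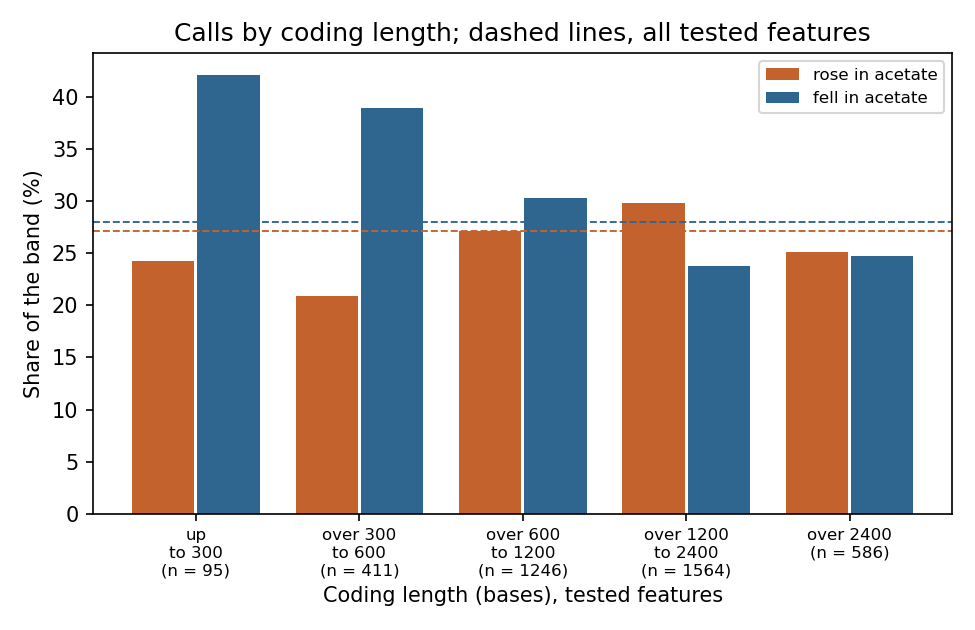
Share of tested wild-type features (vertical axis, %) that rose or fell in acetate, by coding length (horizontal axis, bases); dashed lines give the shares over all tested features. Falls exceed rises by 42.1% to 24.2% in the shortest band, and rises exceed falls by 29.8% to 23.8% in the band ending at 2400 bases.

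The length pattern also appeared in whole libraries. The mean coding length, weighted by counts, was 1644 ± 8.02 bases in acetate and 1532 ± 38.4 bases in YPD (SD, n = 3; exact permutation test, two-sided p = 0.1, the smallest possible). Leaving out PP7435_Chr2-2452 gave 1654 ± 7.30 bases in acetate and 1585 ± 25.7 bases in YPD, again without overlap. The difference between coding length and the effective length that kallisto assigned, which reflects the fragment length of a library, was 344, 334 and 330 bases in acetate and 328, 349 and 331 bases in YPD. These ranges overlapped between the media, and no shorter feature entered them. Whether fragment length bears on the length pattern was not tested.

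Rises and falls were spread over all 4 chromosomes named in the IDs. Rises made up 28.6% of tested features on chromosome 1, 25.9% on chromosome 2, 26.0% on chromosome 3 and 28.2% on chromosome 4, near the 27.2% over all tested features. Falls made up 25.9%, 27.3%, 30.3% and 29.3%, in the same order. Of 16 mitochondrial features 3 had enough counts to test, and 2 of these fell. Mitochondrial features took 0.0804% to 0.118% of acetate counts and 0.18% to 0.332% of YPD counts, in libraries enriched for poly(A) RNA.

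Features with consecutive ID numbers tended to share a direction. How ID numbers relate to position was not stated in the labels or files. In 2538 pairs of consecutive numbers with both features tested, the next feature rose in 35.4% of cases where the first rose and in 21.96% where it fell, beside 27.2% overall. Where the first fell, the next fell in 34.8% of cases, beside 28.0% overall. For rises of at least 8-fold, 19 pairs had both members, and the next feature was also past 8-fold in 12.3% of cases, beside 5.95% overall. Pearson's correlation of the log2 fold changes of such pairs was 0.14, as a description across features.

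Several features described above did not respond alike in the heterothallic strains. In a fit of all 18 libraries, with differences in response adjusted over 4783 features, 6.90% of features differed between wild type and a-type and 4.16% between wild type and α-type. On that scale PP7435_Chr2-0522 in acetate averaged 13279 ± 2274 CPM in wild type, against 12522 ± 835 CPM in α-type cells and 45.0 ± 7.14 CPM in a-type cells (SD, n = 3). Its response in wild type exceeded that in a-type by 8.63 on the log2 scale (SE 0.44; edgeR adjusted p = 1.11e-12). For PP7435_Chr2-0521 the excess was 7.06 (SE 0.49, edgeR adjusted p = 3.05e-10). In acetate PP7435_Chr2-0521 averaged 12768 ± 1176 CPM in wild type, 4801 ± 246 CPM in α-type and 75.2 ± 17.9 CPM in a-type (SD, n = 3). Its acetate values did not overlap between wild type and α-type, and that difference in level was not tested. Neither feature's response passed the test of a difference between wild type and α-type, where the values were -0.58 (SE 0.45; edgeR adjusted p = 0.614) and 1.06 (SE 0.46; edgeR adjusted p = 0.233). For PP7435_Chr1-0175 the differences were 0.56 from a-type (SE 0.35; edgeR adjusted p = 0.437) and 0.48 from α-type (SE 0.35; edgeR adjusted p = 0.535). The other abundant features of YPD fell in all 3 strains. Among them a difference passed only for PP7435_Chr1-1523, whose fall was smaller in wild type than in α-type by 1.39 (SE 0.36; edgeR adjusted p = 0.0217). Against a-type its fall was smaller by 1.04 and did not pass (SE 0.36; edgeR adjusted p = 0.0835). In acetate it had 2102 ± 169 CPM in wild type, 677 ± 122 CPM in α-type and 634 ± 163 CPM in a-type (SD, n = 3).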

How the data were processed

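RNA of wild-type K. phaffii in acetate and YPD was analysed from 6 tables of estimated counts and TPM, deposited by the authors as kallisto output per the file headers. Per the submitters' processing notes, the tools included kallisto, DESeq2, SAMtools, TopHat2, Trim Galore 0.4.2 and FastQC 0.11.2, with no role or order. For the build: not given in the sources used here. Coding lengths were multiples of 3 for 99.9% of features. The authors' normalized signal for this comparison was deposited as a table of scaled counts and served only as a check: its log2 ratios exceeded those of the CPM means by 0.0832 to 0.115 for 8 of the features given by ID, leaving out PP7435_Chr1-1164 and PP7435_Chr4-0072, which that table lists at 0 in 1 medium. The 8 other normalized tables were not used, and 2 of them were identical to that table.

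The quasi-likelihood test of edgeR 4.0.16 (R 4.3.3) was run on rounded estimated counts of the 6 wild-type libraries: filterByExpr with a count minimum of 10, TMM scaling, 1 mean per medium and Benjamini-Hochberg adjustment over 3902 features. CPM uses TMM-adjusted library sizes. Fold bounds use a floor of 3 counts over the group, and floors cover counting error only. Differences between strains came from a fit of all 18 libraries. Features given by ID are the 4 most abundant of each medium, the 2 largest rises and falls in fold among features past the threshold that reach 10 CPM without overlap, and the 2 largest in CPM. Members, lists and this rule were chosen with earlier results of these data known. Alternatives were the fit of 18 libraries, a replicate block, RLE and upper-quartile scaling, DESeq2 1.42.0, limma 3.58.1 voom with quality weights, no filter, and leaving out each library. The labels do not say whether a replicate number marks the same culture in both media, so the main fit had no replicate block.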

Additional observations from a re-analysis of the deposited data

Results flagged for a closer look

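For 5 of the features given by ID, the response to acetate in wild type differed from that in a heterothallic strain by an interaction test over all 18 libraries (edgeR quasi-likelihood, adjusted over 4783 features). Of these features, 4 passed against a-type and 3 against α-type. Over all 4783 features, 6.90% passed against a-type and 4.16% against α-type. The features were chosen by their wild-type values, which also enter this test, so their count is a description. The log2 difference from a-type was 8.63 for PP7435_Chr2-0522 and 7.06 for PP7435_Chr2-0521, and both passed with any single library left out, with ranges of 8.40 to 8.93 and 6.43 to 7.45. PP7435_Chr1-1523 differed from α-type by 1.39, but it did not pass with upper-quartile scaling (1.15, adjusted p = 0.068). Nor did it pass without acetate wild-type replicate 2 (1.32), YPD α-type replicate 3 (1.14) or acetate α-type replicate 3 (1.27). From a-type, PP7435_Chr1-1523 differed by 1.04 and did not pass (edgeR adjusted p = 0.0835). With a library left out, that difference passed only without YPD wild-type replicate 3 (1.30) or acetate a-type replicate 1 (1.29).

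PP7435_Chr1-1164 had a fitted difference of 11.21 from a-type and 8.97 from α-type, which rest on 0 counts in YPD wild type and 3 counts in YPD of each heterothallic strain and are no bounds. The difference from a-type was 7.50 without YPD a-type replicate 1 and did not pass. The difference from α-type did not pass without YPD α-type replicates 2 (8.98) or 3 (8.13), or without acetate wild-type replicates 2 (8.87) or 3 (8.91). Its acetate levels were 483 ± 77.8 CPM in wild type, 12.9 ± 12.5 CPM in α-type and 2.39 ± 0.826 CPM in a-type (SD, n = 3).

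PP7435_Chr4-0072 had fitted differences of -9.73 from a-type and -9.59 from α-type. With PP7435_Chr4-0003 added, the differences were -0.10 (SE 0.36, adjusted p = 0.933) and -0.0033 (SE 0.37, adjusted p = 0.999), so neither passed for the summed pair.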

How the results depend on the processing

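The count of 2154 changed features stayed within 1.5 times under all 14 alternatives, at 1957 with the replicate block, 1996 with DESeq2, 2339 with 18 libraries and 1756 to 2348 with a library left out. Deviations of same-numbered libraries from their group means correlated at -0.0754 to 0.0244. Low correlations cannot settle whether a number marks the same culture in both media, since deviations of a culture need not persist in the other medium. Of the 2154, 1981 passed in the same direction with DESeq2 and 2057 with upper-quartile scaling, under which the median change over all features was -0.15 in place of -0.03 (log2). The number of features holding 50% of counts, acetate minus YPD, was -6, against 54 by TPM, 12.7 with features above 10 counts, -35.3 without PP7435_Chr2-2452 and 6.17 without YPD replicate 2 (range -23.3 to 6.17 with a library left out). The share of the 10 most abundant differed by -3.32 points and by 0.416 without PP7435_Chr2-2452. That of the 100 most abundant was -0.96 points, 1.96 without PP7435_Chr2-2452 and 0.387 without YPD replicate 3 (range -1.74 to 0.387 with a library left out). PP7435_Chr4-0072 turned from -7.23 to 1.61 when summed with PP7435_Chr4-0003. The settings without PP7435_Chr2-2452 and with the summed pair were chosen after seeing the data. All other features given by ID kept direction and side of the threshold in the comparison of media. A floor of 3 counts in a YPD library was 10.1 to 12.8 CPM on the deposited totals, without TMM adjustment. Low features of YPD were therefore measured poorly.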
